A study of Arabidopsis thaliana with 26 samples.

Results

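Seedlings of Arabidopsis thaliana given 6-deoxocastasterone were compared with seedlings given 6-deoxotyphasterol, the brassinosteroid that differs from it by the lack of a hydroxyl group at carbon 2. The comparison rests on 4 of the 26 Affymetrix ATH1 arrays of the series, 2 for each compound, both applied at 1 µM for 3 h. The measured values are MAS5 intensities, 1 per probe set and array. Of the 22810 probe sets on the array, 17606 were tested, those whose intensity averaged 10 or more over the 26 arrays. All plants were 7-day-old whole seedlings of the Col background from stock N6159, and they are described as de-etiolated. The sources used here do not give the stock's genotype, so the plants are not taken as wild type. They also do not say whether the word de-etiolated names a growth condition or a genotype. Mock-treated seedlings and seedlings given 1 µM typhasterol, 100 nM castasterone or 10 nM brassinolide, also 2 arrays each for 3 h, are used beside them. The remaining groups, again 2 arrays each for 3 h, enter the fit and the levels over all 26 arrays. They are 10 µM campestanol and, at 1 µM, 6-deoxocathasterone, cathasterone, 6-deoxoteasterone, teasterone, 3-dehydro-6-deoxoteasterone and 3-dehydroteasterone. The 2 arrays of every group carry the letters A and B. The labels do not say whether A and B came from separate cultures. The p-values therefore cover the spread among arrays, whatever its source, that is left once a shift shared by each letter is taken out. That spread is pooled over the groups of all 26 arrays.

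Brassinosteroids are plant steroid hormones that promote cell elongation. They are perceived at the cell surface by the receptor kinase BRI1, and the signal changes the transcription of genes for cell wall enzymes and growth regulators. In the branch of the synthesis route that runs without a ketone at carbon 6, hydroxylation at carbon 2 turns 6-deoxotyphasterol into 6-deoxocastasterone. Oxidation at carbon 6 then gives castasterone, the precursor of brassinolide. Typhasterol carries the ketone of the other branch and, like 6-deoxotyphasterol, lacks the hydroxyl group at carbon 2.

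The probe sets that differed between the compounds included genes for cell wall enzymes, a beta-glucosidase and several genes known by locus. AT1G19020, which had the smallest adjusted p, was 3.26 times as high after 6-deoxocastasterone as after 6-deoxotyphasterol. XTH18 and XTH19, whose products cut and rejoin xyloglucan in the wall, were 2.91 and 3.36 times as high. AT5G57785 stood at 0.339 of its level after 6-deoxotyphasterol. All these folds are of intensity + 5, which shrinks them somewhat. In all, 27 probe sets were higher (0.153% of those tested) and 14 were lower (0.0795%), which is 41 or 0.233% in either direction by limma at a Benjamini-Hochberg adjusted p under 0.05. Of these, 17 rises and 7 falls were at least 2-fold, and 13 rises and 2 falls name exactly 1 gene. Among the 41, 25 name no gene and 1 names several. Differences of the 41 lay between 0.68 and 2.79 in size on the log2(intensity + 5) scale, with a median of 1.13, and the median difference over all tested probe sets was 0.03. At an unadjusted p under 0.05 there were 1485 probe sets, and the 95% interval of a difference had a median half-width of 0.444.

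The count depends on the fit and on single arrays. Without the letter as a block 1 probe set was called, that of AT1G19020, and 11 were in eBayes without the intensity trend. Without 6-deoxotyphasterol array A the count was 0, with 1362 probe sets at an unadjusted p under 0.05, and without its array B it was 3. Without 6-deoxocastasterone array A it was 47 (16 higher, 31 lower), of which 20 were among the 41, and without array B it was 31, of which 13 were.

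Each compound was also compared with mock. After 6-deoxocastasterone 804 probe sets differed from mock (4.57%), and after 6-deoxotyphasterol 105 did (0.596%). The counts were 343 and 34 without the letter as a block, and 1179 and 610 in fits on the 4 arrays of each comparison alone. Leaving out 1 array gave 323 (without mock array B) to 740 and 27 (without 6-deoxotyphasterol array B) to 60. These comparisons share the mock arrays, so the direct comparison above is the test of the difference between the compounds.

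Among the cell wall genes, XTH19 read 141 on array A and 209 on array B after 6-deoxotyphasterol, and 564 and 613 after 6-deoxocastasterone. Both arrays of the hydroxylated compound were thus above both of the other, and the log2 difference was 1.75 ± 0.26 (SE, adjusted p = 0.00538). XTH18 read 110 and 172 after 6-deoxotyphasterol and 360 and 466 after 6-deoxocastasterone, a log2 difference of 1.54 ± 0.30 (adjusted p = 0.0271). For both genes 6-deoxotyphasterol lay between mock and 6-deoxocastasterone: mock arrays read 71.2 and 116 for XTH19 and 53.8 and 75.6 for XTH18. The 2 genes are close relatives, and cross-hybridisation between their probe sets was not tested.

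The other tested probe sets named as XTH genes did not pass the test. Gene groups here hold only probe sets that name 1 gene, so members among the 25 calls with no gene name would be missed. Of 8 members, 2 rose and 0 fell, beside 0.233% called in either direction over all probe sets. The median difference was 0.48, beside 0.03 over all tested probe sets. At an unadjusted p under 0.05 there were 5 members, in either direction, beside 1485 of all 17606. XTH16 read 267 and 235 after 6-deoxotyphasterol and 461 and 510 after 6-deoxocastasterone (0.94 ± 0.21, adjusted p = 0.0800), without overlap of the arrays. XTH33 stood at 0.75 ± 0.27, EXGT-A3 at 0.20, XTH32 at -0.05, XTH20 at -0.49 and XTH26 at -0.65. Values of the members therefore ran from -0.65 to 1.75.

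**Figure D1:**
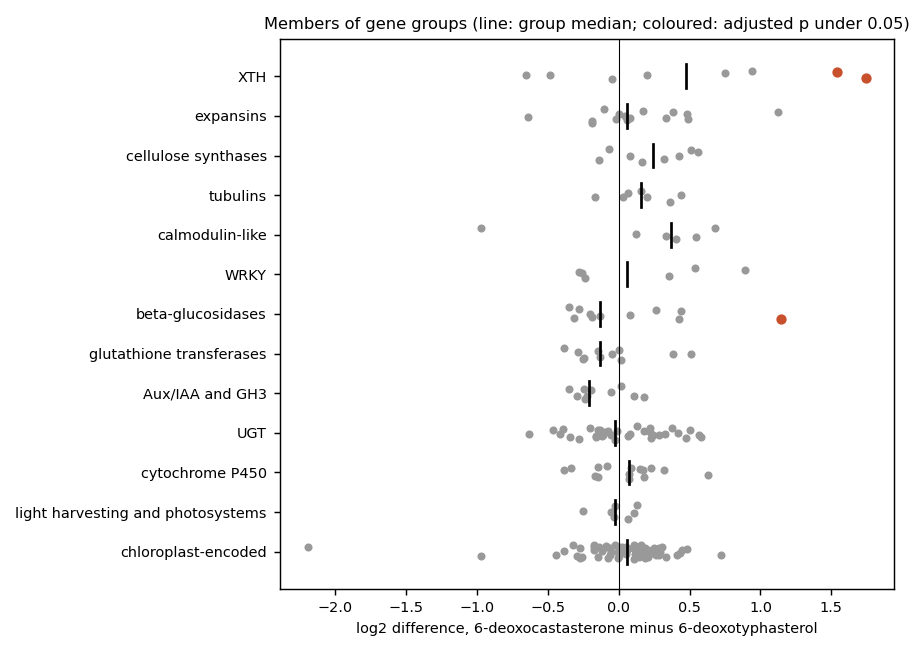
Differences between 6-deoxocastasterone and 6-deoxotyphasterol on the log2(intensity + 5) scale for the tested members of 13 gene groups, 1 point per probe set, with the group median as a black line and members past an adjusted p of 0.05 in colour. XTH18, XTH19 and BGLU46 are the coloured points, and psaB is the lowest point, at -2.20.

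Other named genes with known parts in growth that are listed here did not pass the test. None of 15 expansins, which loosen the wall, passed the test, and their median was 0.06, with 2 at an unadjusted p under 0.05. The largest value was that of the expansin-like gene EXLA2, which read 49.5 and 62.4 after 6-deoxotyphasterol and 121 and 133 after 6-deoxocastasterone (1.12 ± 0.28, adjusted p = 0.135). EXLA1 differed in sign between the letters, with 1.66 for the A arrays and -0.70 for the B arrays. EXPA8 stood at 0.38 ± 0.20 and EXO, a brassinosteroid-responsive growth gene, at 0.54 ± 0.22 (adjusted p = 0.495). EXO was already at 836 and 643 after 6-deoxotyphasterol, against 206 and 135 in mock, and at 1324 and 861 after 6-deoxocastasterone.

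Of 8 cellulose synthase-like genes 0 passed, with a median of 0.24, 6 above 0 and 3 at an unadjusted p under 0.05. CSLC04, which makes the xyloglucan backbone, stood at 0.43 ± 0.15 (adjusted p = 0.403). Among 3 pectin enzymes the median was 0.30 and ATPMEPCRB, a pectin methylesterase, stood at 0.88 ± 0.30 (adjusted p = 0.373). The 7 tubulins had a median of 0.15, with TUB1 highest at 0.44. The 10 Aux/IAA and GH3 genes, which repress auxin responses or conjugate auxin, had a median of -0.21, with values from -0.35 to 0.18 and 0 at an unadjusted p under 0.05. Limma called 0 members in any of these groups.

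AT1G30690, AT1G21830 and the 2 falls among named genes moved like the XTH pair, with 6-deoxotyphasterol between mock and 6-deoxocastasterone. AT1G30690, which encodes a protein of the patellin family of lipid-binding transfer proteins, read 137 and 176 after 6-deoxotyphasterol and 212 and 357 after 6-deoxocastasterone (0.81 ± 0.16, adjusted p = 0.0262). AT1G21830 rose from 90.9 and 78.0 to 242 and 139 (1.08 ± 0.20, adjusted p = 0.0184). In both genes the arrays of the compounds did not overlap, though the 2 arrays of 6-deoxocastasterone were far apart.

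AT5G57785 read 564 and 475 in mock, 100 and 113 after 6-deoxotyphasterol and 43.1 and 24.5 after 6-deoxocastasterone. The difference between the compounds was -1.56 ± 0.28 (adjusted p = 0.0184). AT5G22580, whose product has a stress-responsive dimeric barrel domain, read 737 and 578 after 6-deoxotyphasterol and 462 and 252 after 6-deoxocastasterone (-0.92 ± 0.18, adjusted p = 0.0271). Both genes were lower on each array of the hydroxylated compound than on either array of 6-deoxotyphasterol. Only these 2 named falls passed, and the next by p were AT1G32190 at -1.16 (adjusted p = 0.0552), AT5G04750 at -0.66, AT5G66420 at -0.51 and AT4G33700 at -0.91. Probe sets with no gene name fell further: 250752_at stood at -1.76 and 256598_at at -1.56 (adjusted p = 0.0184 and 0.0150).

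**Figure D2:**
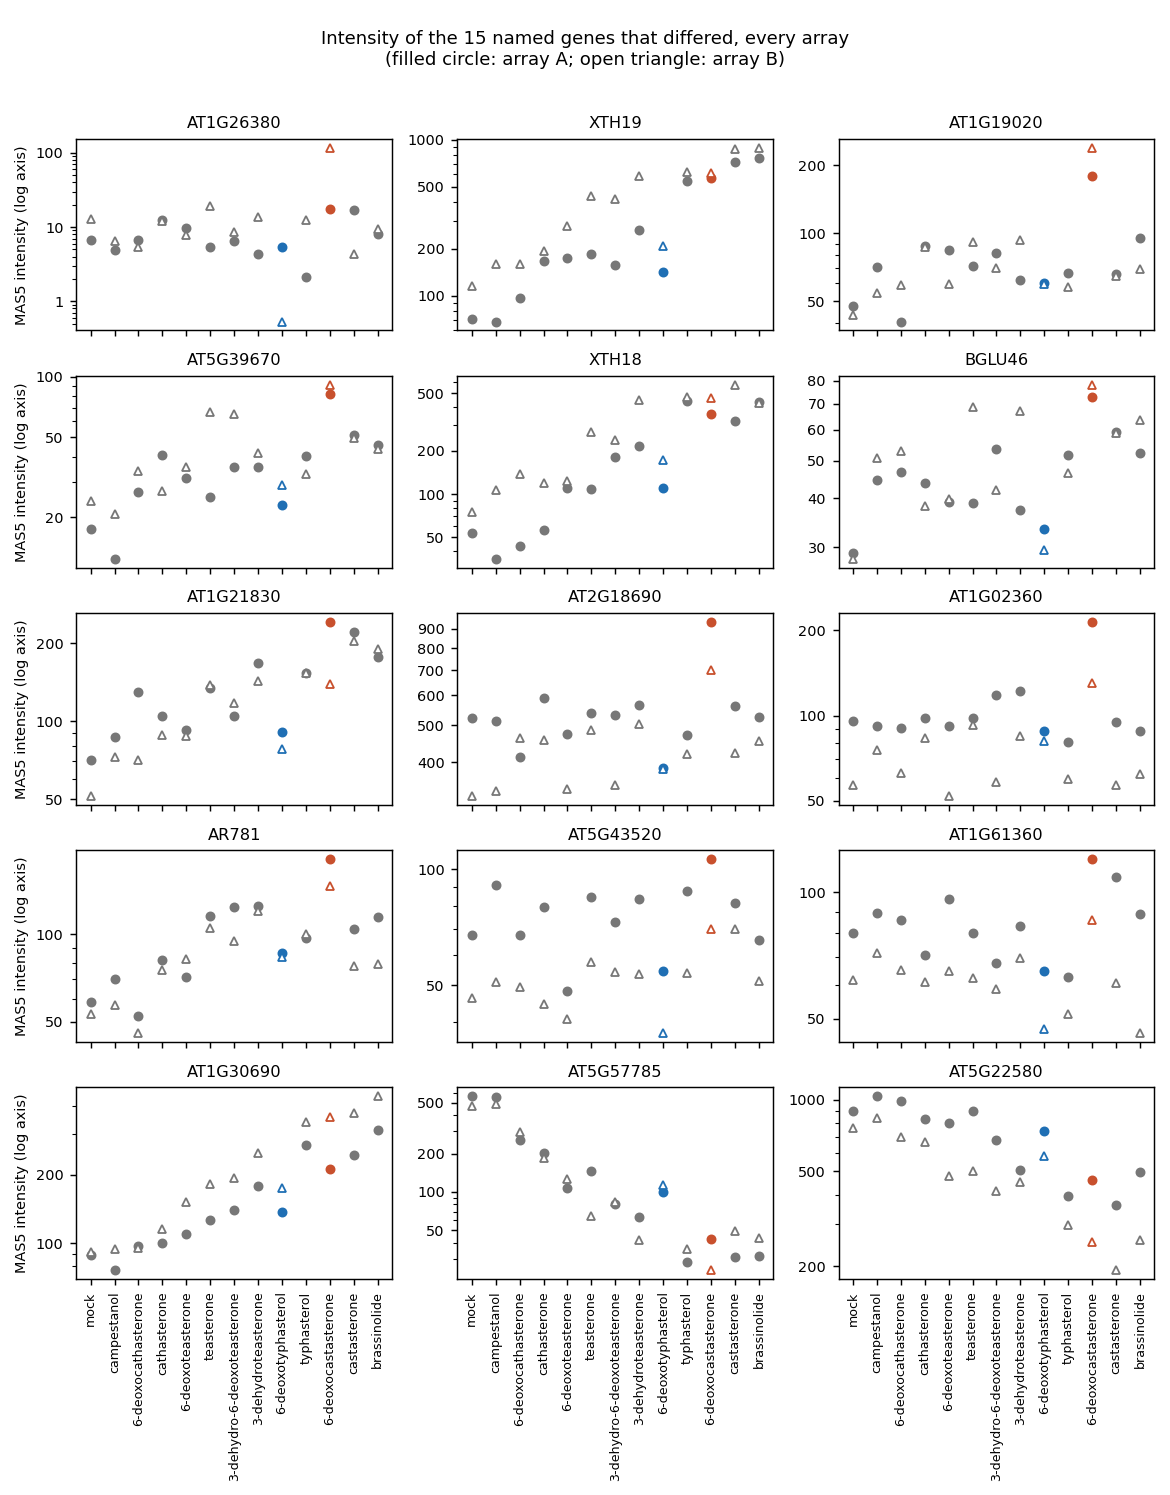
MAS5 intensities (log axis) of the 15 named genes that differed between the compounds, on all 26 arrays, with 6-deoxotyphasterol in blue, 6-deoxocastasterone in orange-red and the other 11 groups in grey. For AT1G19020 both 6-deoxocastasterone arrays, at 178 and 239, stand above the other 24, while for XTH19 they lie near the typhasterol, castasterone and brassinolide arrays.

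Among the remaining named rises, AT1G19020 read 60.2 and 59.6 after 6-deoxotyphasterol and 178 and 239 after 6-deoxocastasterone, a log2 difference of 1.70 ± 0.22 (adjusted p = 0.00334). The other 24 arrays reached at most 95.2, on a brassinolide array, and had a median of 66.3. AT5G39670, which encodes a calcium-binding EF-hand protein, read 23.1 and 28.9 against 82.2 and 91.1 (1.57 ± 0.29, adjusted p = 0.0184). Its highest value elsewhere was 67.2. BGLU46, a beta-glucosidase of the clade that acts on monolignol glucosides, read 33.4 and 29.6 against 73.0 and 78.2 (1.14 ± 0.22, adjusted p = 0.0271). Its highest value elsewhere was 68.8, on a teasterone array.

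AT2G18690 was a brighter gene, with 387 and 384 after 6-deoxotyphasterol and 937 and 702 after 6-deoxocastasterone (1.06 ± 0.17, adjusted p = 0.00841). AT1G02360, of the chitinase family, read 87.9 and 81.5 against 214 and 130 (0.94 ± 0.19, adjusted p = 0.0317). AR781 read 86.0 and 83.8 against 182 and 146 (0.90 ± 0.16, adjusted p = 0.0154). In these 3 genes too, both 6-deoxocastasterone arrays were above the other 24. That holds for 12 of the 27 rises, 6 of them naming 1 gene, and for 78 of all tested probe sets (0.443%). The rises were chosen for being high on these 2 arrays, so nothing is read from the larger share.

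AT5G43520 read 54.4 and 37.6 after 6-deoxotyphasterol and 106 and 70.1 after 6-deoxocastasterone (0.86 ± 0.16, adjusted p = 0.0208). AT1G61360, of the lectin receptor-like kinase family, read 65.0 and 47.2 against 120 and 85.9 (0.82 ± 0.17, adjusted p = 0.0392). For both genes 1 6-deoxocastasterone array lay within the range of the other 24. AT1G26380, which encodes an oxidoreductase of the berberine bridge enzyme family, was dim, with 5.46 and 0.528 after 6-deoxotyphasterol and 17.7 and 117 after 6-deoxocastasterone. Its log2 difference of 2.79 ± 0.58 (adjusted p = 0.0435) is set largely by the pseudocount, with 3.90 for a pseudocount of 1 and 1.83 for 16, and the call held in 2 of 10 other settings. The difference was 1.12 for the A arrays and 4.47 for the B arrays, and 1.67 (adjusted p = 0.319) without 6-deoxocastasterone array B. Among probe sets with no gene name, 245038_at rose by 1.96 and 247949_at by 1.91 (adjusted p = 0.0154 and 0.0390).

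Families that include stress and defence genes are given by their counts, which at a share of 0.233% called over all probe sets are too small to say anything about a family. Of 11 beta-glucosidases 1 rose, BGLU46, and the median was -0.13, with 3 at an unadjusted p under 0.05. BGLU45, a close relative of BGLU46, read 9.78 and 9.76 against 16.3 and 13.8 (0.44 ± 0.29). The 6 WRKY transcription factors had a median of 0.06. WRKY53 read 12.99 and 14.46 against 23.7 and 36.8 (0.89 ± 0.35, adjusted p = 0.480). The 6 calmodulin-like calcium sensors had a median of 0.37, from -0.97 for CML38 to 0.68 for CML30, and the 11 glutathione transferases one of -0.14. Limma called 0 of these 3 groups, and 2, 1 and 0 of their members had an unadjusted p under 0.05. The calcium sensors were grouped by gene name, and AT5G39670, the called EF-hand gene known by locus, is not among them. Likewise 0 of 35 UDP-glycosyltransferases and 0 of 15 cytochrome P450s were called, with medians of -0.03 and 0.07, and 3 and 2 had an unadjusted p under 0.05.

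The 2 arrays of 6-deoxocastasterone were the least alike of any group. Across probe sets their log2 values correlated at 0.948, the lowest of the 13 groups, while those of 6-deoxotyphasterol correlated at 0.975, the highest. The leaf gene RCA, for Rubisco activase, read 36.5 on 6-deoxocastasterone array A and 585 on array B, and from 15.5 to 1591 on the other 24. The chloroplast genes psaB and atpB read 31.5 and 223 on array A and 791 and 815 on array B. The 69 chloroplast-encoded probe sets, these included, had a median difference of 0.06, and the 7 for light harvesting and photosystems one of -0.03. Limma called 0 in either group, and 2 and 0 had an unadjusted p under 0.05. The 3 root markers had a median of 0.08. The ratio of the 3′ to the 5′ control probe sets for GAPDH was 0.500 and 0.397 after 6-deoxocastasterone and 0.394 and 0.404 after 6-deoxotyphasterol, within the range of 0.334 to 0.602 of the others. The part of these array differences in the results was not tested.

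**Figure D3:**
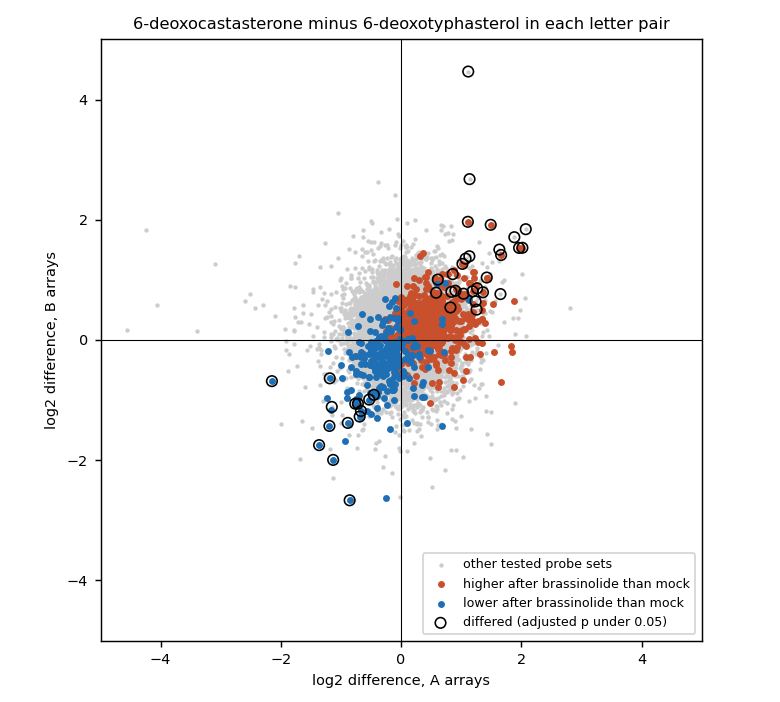
Log2 difference between 6-deoxocastasterone and 6-deoxotyphasterol for the A arrays (horizontal axis) and the B arrays (vertical axis), 1 point per tested probe set, with those called higher or lower after brassinolide than in mock in colour and the 41 that differed between the compounds ringed. The ringed points all lie in the quadrants where both letters share a sign, while the grey points scatter around 0.

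Over all 17606 probe sets, the difference of the A arrays and that of the B arrays had the same sign for 51.1%, and the 2 differences correlated at 0.0621 across probe sets, which are not independent replicates. The arrays of the compounds did not overlap for 5465 of the tested probe sets (31.0%). All 41 called probe sets were among these and had the same sign in both letters, which largely follows from their being called in this fit. Over all probe sets, the difference seen in one letter thus said little about that in the other. The probe sets moved by brassinolide, described below, had medians of the same sign in both letters.

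Whether the compounds differ on the genes that brassinolide moves was asked with the brassinolide and mock arrays, which are separate from the 4 arrays compared. After 10 nM brassinolide 669 probe sets were higher than in mock (3.80%) and 248 were lower (1.41%). Of the 669, 628 (93.9%) were higher after 6-deoxocastasterone than after 6-deoxotyphasterol, against 55.5% of all tested. Their median difference was 0.34, with 0.44 for the A arrays and 0.25 for the B arrays. Limma called 12 of them higher (1.79%) and 0 lower, with 278 and 1 at an unadjusted p under 0.05. Over all 17606 tested, 27 were called higher (0.153%) and 14 lower (0.0795%), with 928 and 557 at an unadjusted p under 0.05. Of the 248, 35 (14.1%) were above 0 and the median was -0.31, with -0.26 and -0.31 for the letters. Limma called 13 of these lower (5.24%) and 0 higher, and 95 and 4 had an unadjusted p under 0.05. The 16689 probe sets not called for brassinolide had a median of 0.03.

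On the arrays themselves, the probe sets raised by brassinolide had a mean log2 value of 6.39 and 6.30 in mock, 6.88 and 6.96 after 6-deoxotyphasterol and 7.37 and 7.23 after 6-deoxocastasterone. The 2 compounds did not overlap, and both arrays of each were above both mock arrays. The list was chosen for being low in mock, so the place above mock is in part given by that choice. Campestanol arrays, at 6.43 and 6.46, were above mock as well. The probe sets lowered by brassinolide stood at 7.60 and 7.54 in mock, 7.10 and 7.06 after 6-deoxotyphasterol and 6.82 and 6.68 after 6-deoxocastasterone, again without overlap. At their different doses, castasterone stood at 7.38 and 7.36 for the raised and 6.64 and 6.61 for the lowered probe sets, and brassinolide at 7.42 and 7.48 and at 6.57 and 6.54. Typhasterol, at the same dose as the 2 compounds, stood at 7.293 and 7.295 for the raised and 6.674 and 6.643 for the lowered probe sets. Levels near those of 6-deoxocastasterone were thus also seen after a compound without the hydroxyl group at carbon 2. The lists were chosen on the mock and brassinolide arrays, so the levels of those 4 arrays, and the place of other groups beside mock, are a description.

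**Figure D4:**
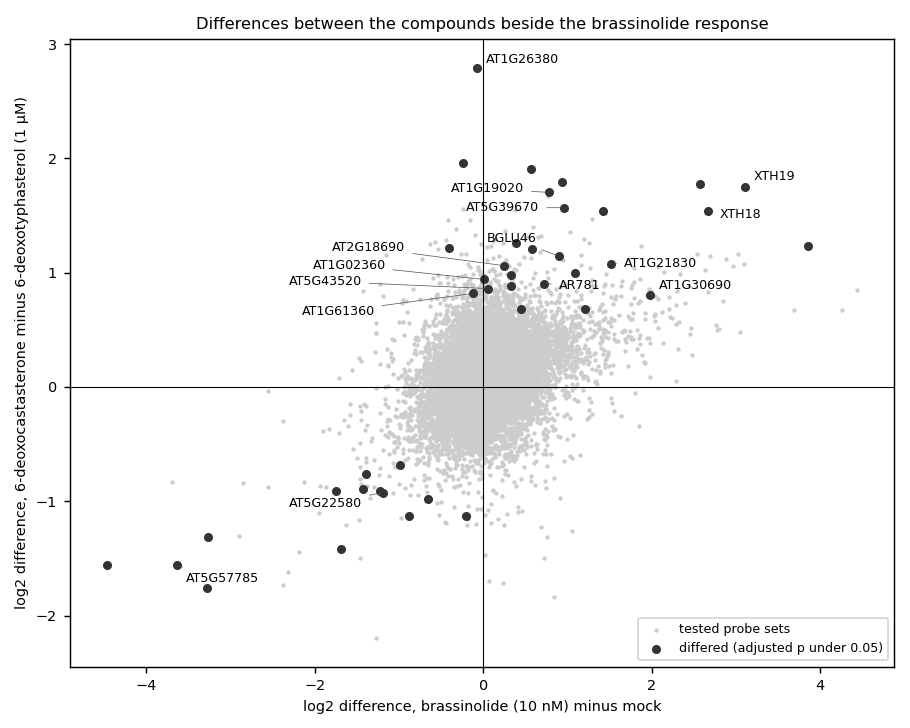
Log2 difference between 6-deoxocastasterone and 6-deoxotyphasterol (vertical axis) against that between brassinolide and mock (horizontal axis), 1 point per tested probe set, with the 41 that differed between the compounds in black and the named ones labelled. XTH19 lies at 3.11 and 1.75 and AT5G57785 at -3.64 and -1.56, while AT1G26380, AT2G18690, AT1G02360, AT5G43520 and AT1G61360 lie near 0 on the brassinolide axis.

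The called probe sets were then looked up in these 2 lists, with no test of the difference between rises and falls. The lists hold 917 probe sets with the letter as a block and 454 without it, so membership rests on the fit. Of the 14 falls, 13 (92.9%) were among the probe sets lowered by brassinolide, which is 5.24% of that list. Of the 27 rises, 12 (44.4%) were among those raised, 1.79% of that list, and 15 were not called for brassinolide. Those 15 had a median difference of 1.21 between the compounds and of 0.32 between brassinolide and mock. AT2G18690 differed by 0.24 between brassinolide and mock (adjusted p = 0.559), AT1G02360 by 0.01 (adjusted p = 0.992) and AT1G61360 by -0.12 (adjusted p = 0.837). For AT5G39670 the value was 0.96 (adjusted p = 0.0569), close to the threshold, so its place among the 15 is not firm. AT1G19020 (0.78), BGLU46 (0.90), AR781 (0.72), AT1G21830 (1.52), AT1G30690 (1.98), XTH18 (2.67) and XTH19 (3.11) were among those raised.

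Most of the genes that brassinolide moved furthest did not pass between the compounds. By the rule for naming, its 10 largest named rises were AT1G29660, XTH19, EXLA1, AT3G50560, EXLA2, XTH33, EXO, XTH18, AT5G45670 and AT5G24570, and XTH18 and XTH19 were those that passed between the compounds. The other 8 stood between 0.47 and 1.12, all above 0, with adjusted p between 0.135 and 0.822. AT3G50560 read 107 and 131 after 6-deoxotyphasterol and 317 and 199 after 6-deoxocastasterone (1.06 ± 0.30). AT5G45670 read 139 and 162 against 260 and 371 (1.02 ± 0.26), also without overlap. Of the 5 largest named falls AT5G57785 passed, and AT5G01740 (-0.83), AT1G80130 (-1.10), AT3G23550 (-0.38) and AT5G02540 (0.08) did not. AT5G01740 was at 356 and 234 in mock, had already reached 43.0 and 38.7 after 6-deoxotyphasterol, and was at 21.95 and 19.61 after 6-deoxocastasterone.

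Typhasterol, given at the same dose and time, allows a matched comparison with 6-deoxocastasterone: it has the ketone at carbon 6 but not the hydroxyl group at carbon 2. Limma called 2 probe sets between them (0.0114%), both higher after 6-deoxocastasterone, and 802 were at an unadjusted p under 0.05. AT1G19020 read 66.8 and 57.8 after typhasterol, a difference of 1.65 ± 0.22 (95% interval 1.19 to 2.12, adjusted p = 0.00525). AT1G02360 read 80.8 and 59.6 after typhasterol, a difference of 1.21 ± 0.19 (0.82 to 1.60, adjusted p = 0.0211). For both genes the arrays of the 2 compounds did not overlap. The count was 1 without the letter as a block. In a fit on the 4 arrays alone it was 14, with 6 higher and 8 lower. With 1 array left out, neither the called probe sets nor their direction held in every fit. With p-values adjusted over both matched pairs together, 33 of the 41 probe sets and 4 against typhasterol were called.

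**Figure D5:**
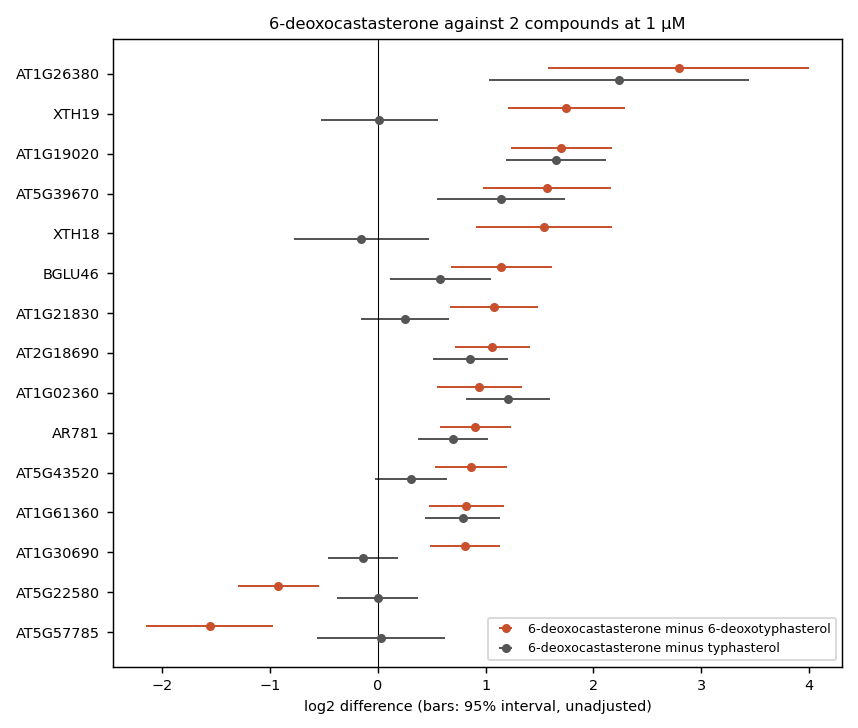
Log2 difference of 6-deoxocastasterone from 6-deoxotyphasterol (orange-red) and from typhasterol (grey) for the 15 named genes, with 95% intervals as bars. Intervals against typhasterol hold 0 for XTH18, XTH19, AT1G21830, AT1G30690, AT5G43520, AT5G22580 and AT5G57785, and lie above 0 for the other 8.

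The other named genes did not pass against typhasterol, and their intervals show what size of difference remains possible. XTH19 read 546 and 622 after typhasterol and differed by 0.01 (95% interval -0.53 to 0.55). XTH18 differed by -0.15 (-0.78 to 0.48), AT1G30690 by -0.14 (-0.46 to 0.19), AT5G57785 by 0.03 (-0.56 to 0.62) and AT5G22580 by 0.00 (-0.38 to 0.37). For AT2G18690 the difference was 0.86 (0.51 to 1.21, adjusted p = 0.208), for AR781 0.70 (0.37 to 1.02, adjusted p = 0.363) and for AT5G39670 1.14 (0.55 to 1.74, adjusted p = 0.500). BGLU46 stood at 0.58 (0.11 to 1.05) and AT1G61360 at 0.78 (0.43 to 1.14). AT1G26380 stood at 2.24 (1.03 to 3.45, adjusted p = 0.580). Both comparisons use the same 6-deoxocastasterone arrays, so the values stand side by side and are not 2 independent results.

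Castasterone carries both the hydroxyl group at carbon 2 and the ketone, and was given at 100 nM, so its levels are listed without a comparison. XTH19 read 720 and 870 after castasterone and 761 and 885 after 10 nM brassinolide. AT5G57785 read 30.8 and 49.4, and 31.3 and 43.4. AT1G19020 read 65.9 and 64.4, and 95.2 and 69.7, and AT2G18690 read 562 and 423, and 528 and 455.

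Calls of single genes varied with the arrays left out. Over the 4 fits that each leave out 1 array and the 11 other settings, AT1G19020 lost its call in 1, without 6-deoxotyphasterol array A (adjusted p = 0.0675). XTH19 lost it without either 6-deoxotyphasterol array and without the letter as a block, and AT2G18690 without 6-deoxotyphasterol array A and in 2 of the other settings. The other 12 named genes that passed lost their calls in at least 3 of the 4 fits with an array left out. AT1G61360 kept its call in 3 of 11 other settings. No named gene changed direction under any of these settings, which largely follows from the naming rule, as it asks for 1 sign in both letters. Settings that alter only the p-values could not change a direction.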

How the data were processed

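The authors deposited linear intensities computed with MAS5 (version not given in the sources used here), per the submitters' processing notes. The 2 to 98% trimmed mean was 99.96 to 99.97 on every array, so no further scaling was applied. Array medians lay between 33.9 and 41.0, and no 2 arrays held identical values. A platform table named 1 gene for 13513 probe sets, several for 503 and none for 8730, and 64 controls were left out. A RefSeq table (TAIR10.1) matched 13436 of those naming 1 gene.

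The deposited intensities were taken as log2(value + 5), a scale that shrinks the fold of dim genes. All 26 arrays entered 1 fit in limma 3.58.1 (R 4.3.3), with a coefficient per group, the letter as a block and an intensity trend in eBayes (12 residual degrees of freedom). The fit was checked on simulated data. Precision is limited by 2 arrays a group. The letter was used as a block although the labels do not say what it marks. As a check of pairing, the difference between a group's A and B arrays correlated at 0.288 for the 2 compounds across probe sets, and above 0.1 in 76 of 78 pairs of groups (median 0.317).

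Named genes are the 15 largest rises and falls past the threshold that name 1 gene, share a sign in both letters and do not overlap; where fewer than 6 pass, those with the smallest p fill up. The 10 largest rises and 5 largest falls of brassinolide follow the same rule. Of 37 gene lists, 16 kept at least 3 tested members; genes of brassinosteroid synthesis, inactivation and signalling had no tested named probe set and are not analysed here. The comparison, the members and the lists were chosen with earlier results of these data known. Protein classes of genes named by locus are background knowledge. Other pseudocounts, filters, normalizations, fits and left-out arrays were tried as alternatives.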

Additional observations from a re-analysis of the deposited data

How the results depend on the processing

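The comparison of the 2 compounds gave 41 probe sets with the letter as a block and 1 without the replicate block, 11 in eBayes without the trend and 13 with only probe sets that name 1 gene. Leaving out 1 array gave 0 to 47, and without 6-deoxocastasterone array A 34.04% of the 47 were higher, against 27 of 41. Pseudocounts of 1 and 16, other filters, quantile normalization, median centring, a joint adjustment and a fit on the 4 arrays gave 33 to 47, but the last shared only 22 of its 44 with the 41. Against typhasterol the count of 2 became 1 without the block and in eBayes without the trend, 14 with only the arrays compared, 4 with the joint adjustment, and 0 to 10 with 1 array left out. For 6-deoxocastasterone against mock, 804 became 343 without the block, 339 with 1 gene named and 323 to 740 with 1 array left out, and the share of higher calls was 63.8% with median centring. For 6-deoxotyphasterol against mock, 105 became 34, 610 with only the arrays compared, 63 without the trend, 38 with 1 gene named and 27 to 60 with 1 array left out. The 917 of brassinolide against mock became 454 without the block, 404 with 1 gene named and 406 (without mock array B) to 607 with 1 array left out. The median difference of the probe sets raised by brassinolide was 0.26 to 0.43 with 1 array left out, and that of the probe sets lowered was -0.33 to -0.27, with the value nearest 0 without 6-deoxocastasterone array B. The cause of these shifts was not tested. Dim probe sets such as that of AT1G26380 are limited by signal over background: its difference was 3.90 with a pseudocount of 1 and 1.83 with 16.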
